A study of Setaria viridis with 5 samples.

Results

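The genes described here are the 200 of 35214 that were seen in nearly every leaf cell of Setaria viridis, a grass with C4 photosynthesis. Cell barcodes with at least 5000 unique molecular identifiers (UMIs, tags that mark single captured RNA molecules), called deep barcodes from here on, were used to choose them. In each wild-type library, the share of deep barcodes with at least 1 UMI of a gene was taken, and the lowest of the 3 shares had to reach 80%, which 372 genes did. Genes averaging 10 or more CPM (counts per 1000000 UMIs) whose genotypes were separated 2-fold were dropped, which removed 1 gene and left 371. The 200 with the highest lowest share are the members, and 171 genes were left over. The choice thus used detection in the wild-type libraries and the size of the genotype difference, so these values of the members are given as a description only.

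The libraries came from 2 groups of plants of strain A10, all 4 weeks old, and from the middle section of the leaf. The shr2 group (2 libraries) carries a loss-of-function allele of the transcription factor gene SHORT ROOT made by CRISPR, and the wild-type group (3 libraries) does not. About 10000 cells were loaded per library, after the cell walls had been digested by enzymes to give protoplasts, and RNA was counted from its 3′ end with the 10x Genomics Chromium system. The labels describe the replicates as independent without naming plants or days, so any p-value measures the spread between these libraries only. The labels mention 3 replicates per genotype, and the third of shr2 was not analysed here.

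In leaves of C4 grasses, carbon is first fixed in mesophyll cells and passed on to bundle sheath cells around the veins, and these cell types differ in many of their most abundant RNAs. SHORT ROOT is best known from roots, where it specifies the tissue layer around the vascular cylinder, and in leaves of C4 grasses it has been studied for its part in bundle sheath patterning. Genes whose RNA is found in nearly every cell of an organ usually serve functions that all of its cells share, such as protein synthesis, but a very abundant gene of 1 cell type can also reach other barcodes as free RNA. The gene identifiers (Sevir) came without names, and 0 of 35214 matched the RefSeq gene table used here, so no member can be given a name, a role or a sequence. For the same reason the leaf tissue could not be checked against its marker genes, no cluster of cells could be named, and no cell type that should lack a member could be pointed out. The part of free RNA in the shares below was not tested.

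The libraries shr2 replicates 1 and 2 held 7467 and 4441 deep barcodes, and wild-type replicates 1, 2 and 3 held 6803, 4085 and 3721. The median of UMIs per deep barcode was lower in shr2 replicate 1, at 8209, than in the other 4 libraries, where it lay between 10926 and 12196. Any 2 libraries shared between 8 and 19 barcode sequences. The levels of the members differed least between wild-type replicates 2 and 3, with an SD of the log2 CPM difference of 0.08 over the 200 genes. Whether these 2 libraries came from separate protoplast preparations cannot be told from the labels, so wild-type means, SDs and counts without overlap given here over 3 libraries may rest on fewer independent samples. Between shr2 replicate 1 and wild-type replicate 1 that SD was 0.26, and between shr2 replicate 2 and wild-type replicate 2 it was 0.24. Wild-type replicates 1 and 2 were farther apart, with an SD of 0.44. Wild-type replicate 1 therefore stood closer to shr2 replicate 1 than to the other wild-type libraries, and results on genotype are also given without it.

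Detection of the members carried over to the shr2 libraries, which the choice did not use for detection. The median share of deep barcodes with a UMI was 97.0% and 97.7% in shr2 replicates 1 and 2, against 97.7%, 96.4% and 96.6% in wild-type replicates 1, 2 and 3. Of the 200 members, 156 and 187 were also among the 200 genes with the highest share in shr2 replicates 1 and 2. In shr2 replicate 2 the lowest share of any member was 90.9%, and in shr2 replicate 1 it was 82.6%, with 18 members under 90%. When every barcode was thinned to 5000 UMIs, the median shares were 92.3% and 92.4% in shr2 libraries, against 93.2%, 92.2% and 92.0% in wild-type libraries, so the libraries differed little at equal depth. With 3721 to 7467 barcodes per library, the exact (Clopper-Pearson) 95% binomial interval of a single share was at most between 1.39 and 1.88 points wide in a library, which covers counting error only.

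At the top of the order stood Sevir.2G065100 and Sevir.2G348300, each with a lowest wild-type share of 99.97%. Sevir.2G065100 was seen in 100% of the deep barcodes of both shr2 libraries, and in all but 1 barcode of each wild-type library. It was also the member with the highest level, at 22726 and 30534 CPM in shr2 libraries, against 26049, 35013 and 35120 CPM in wild-type libraries. The next in order were Sevir.7G168800, Sevir.3G037500 and Sevir.3G043900, all at 99.95% or more. At the edge of the list, Sevir.3G093500 was last with a lowest wild-type share of 90.8%, and Sevir.9G431200 was the next gene outside at 90.7%. The 4 genes after it (Sevir.2G380900, Sevir.8G151700, Sevir.3G054200 and Sevir.9G033300) had lowest shares between 90.2% and 90.5%. The edge is thus a cut through a continuous range. Sevir.3G093500 was seen in 82.6% of the deep barcodes of shr2 replicate 1 (exact 95% interval 81.7% to 83.4%) and in 92.2% of those of shr2 replicate 2 (91.4% to 93.0%), against 90.8%, 91.1% and 91.5% in wild-type replicates 1, 2 and 3. The lowest share of this gene was in the library with the fewest UMIs per barcode. The gene that the 2-fold rule dropped, Sevir.3G415300, stood at place 287 by share, so it would not have been a member in any case.

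A single deep barcode carried nearly all of the members at once. The median number of members with a UMI per deep barcode was 193 and 197 in shr2 libraries, and each of the 3 wild-type libraries lay between these values. All 200 were present in 5.62% and 16.8% of the deep barcodes of shr2 replicates 1 and 2, against 11.9%, 11.4% and 10.3% in wild-type replicates 1, 2 and 3. At 5000 UMIs per barcode the medians were 184 and 185 in shr2 libraries, against 184 in each wild-type library. If every barcode of a library had the same composition, counting alone would leave a mean of 192 and 193 members at that depth in the shr2 libraries, and between 192 and 193 in the wild-type libraries. The median of each library was thus under the mean expected from counting alone.

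Most members were seen in fewer barcodes than their level alone would give. The share expected from a gene's level and the depth of the barcodes alone had a median of 99.76% and 99.97% in shr2 libraries, against 99.92%, 99.98% and 99.97% in wild-type libraries. Observed shares lay more than 1 point under that expectation for 134 and 139 members in shr2 replicates 1 and 2, against 143, 148 and 148 in wild-type replicates 1, 2 and 3. They lay more than 5 points under it for 43 and 14 members in shr2 libraries, against 26, 45 and 44 in wild-type libraries. Sevir.9G139300, at place 199 of the order, had 1058 and 1310 CPM in shr2 libraries, against 1153, 2010 and 1859 CPM in wild-type libraries. It was seen in 90.4% and 90.9% of deep barcodes of the shr2 libraries, against 92.0%, 91.3% and 90.8% in wild-type libraries. Sevir.3G255200, beside it in the order, reached 94.6% and 94.8% in shr2 libraries, against 95.1%, 91.8% and 91.1% in wild-type libraries, with only 484 and 390 CPM in shr2 libraries, against 416, 316 and 317 CPM in wild-type libraries. The first of these genes had the higher level but was spread unevenly over barcodes. The unevenness is given by the extra CV defined below, whose mean over libraries was 0.914 for Sevir.9G139300 and 0.337 for Sevir.3G255200.

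**Figure D1:**
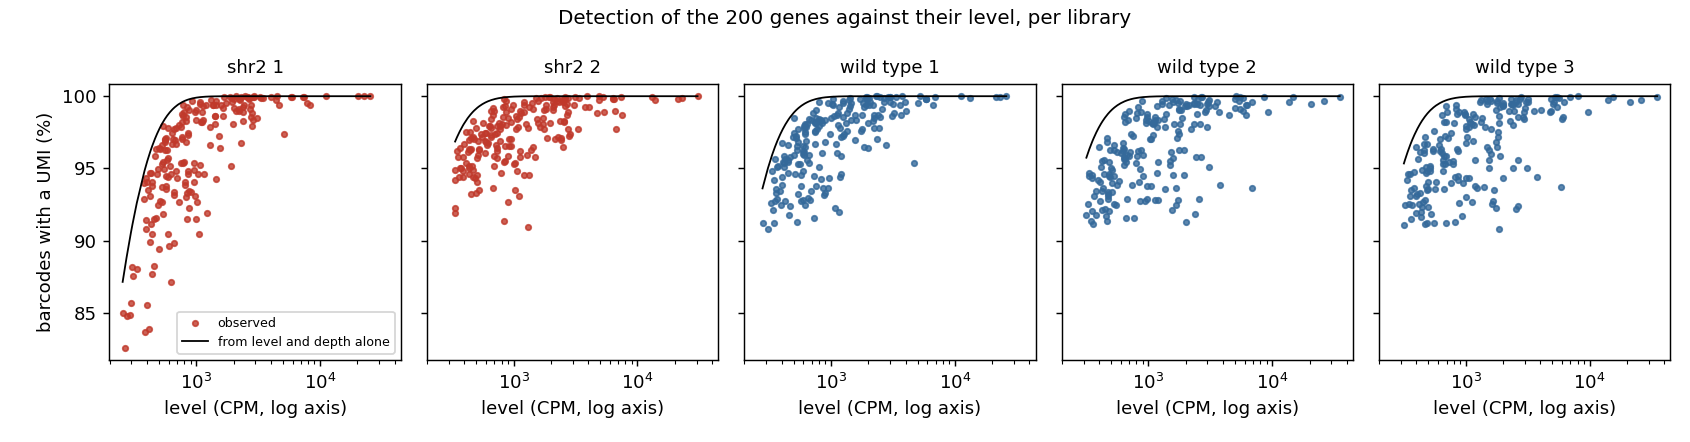
Share of deep barcodes with a UMI (percent, y axis) against level (CPM, log x axis) for the 200 genes, 1 panel per library (shr2 in red, wild type in blue); the black line gives the share that the level and the barcodes' depth alone would give. Points lie on the line at the highest levels, and others fall under it by differing amounts, more than 5 points for 14 to 45 genes per library.

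The members made up a large part of the RNA captured. They took 35.1% and 39.7% of the UMIs of deep barcodes in shr2 replicates 1 and 2, against 36.3%, 42.6% and 42.8% in wild-type replicates 1, 2 and 3. Those values average 37.4% ± 3.20 (SD, n = 2) in shr2 and 40.6% ± 3.72 (SD, n = 3) in wild type, and the genotypes overlapped. The 10 most abundant members of a library took 12.2% and 13.6% of its deep UMIs in shr2, against 12.6%, 14.8% and 14.9% in wild type.

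Levels covered a wide range. Because 1 UMI stands for 1 molecule counted at its 3′ end, CPM values can be set beside each other between genes without a correction for length. Mean levels over the 5 libraries ran between 318 and 29888 CPM with a median of 938. Of the 200 genes, 97 were above 1000 CPM, 13 above 5000 and 5 above 10000, and 34 were under 500. The 5 highest were Sevir.2G065100, Sevir.4G076100, Sevir.7G206100, Sevir.3G037500 and Sevir.9G063900, with means of 29888, 23323, 22270, 13081 and 12645 CPM. Sevir.7G206100 was at 25447 and 21316 CPM in shr2 libraries, against 23154, 20384 and 21046 CPM in wild-type libraries, and the genotypes overlapped. Sevir.9G063900 was at 8231 and 13855 CPM in shr2 libraries, against 13270, 13677 and 14193 CPM in wild-type libraries. Its level in shr2 replicate 1 stood under the other 4 libraries, which lay close together. At the low end, Sevir.6G136300 had 255 and 338 CPM in shr2 libraries, against 345, 327 and 323 CPM in wild-type libraries. The others among the 5 lowest (Sevir.3G093500, Sevir.3G032600, Sevir.5G435200 and Sevir.4G033000) had means between 327 and 349 CPM. The lowest member of a library gave an average of 2.32 and 4.59 UMIs per deep barcode in shr2 libraries, against 3.41, 3.84 and 3.68 in wild-type libraries.

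High level alone does not make a gene a member. Another 291 genes had a mean level at or above that of the lowest member, and their median lowest wild-type share was 74.4%. Of these other abundant genes, 53 were seen in under 50% of the deep barcodes of some wild-type library, and 104 reached 80%. They were also less abundant on the whole, with a median of 499 CPM and 52 genes above 1000 CPM.

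The level of a member varied little between libraries. The median SD of log2 CPM over the 5 libraries was 0.19 for members, 0.36 for the other abundant genes and 0.30 for all 7223 genes with at least 10 CPM. The highest library was less than 1.5 times the lowest for 131 members and more than 2 times for 18. The difference between members and other genes was not tested, since the choice of members used these libraries. The order of levels was kept from library to library, with Spearman's rho between 0.888 and 0.997 over the 200 genes for the 10 pairs of libraries.

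Spread between barcodes was measured for each gene and library as the coefficient of variation left after the variance expected from counting was removed, called the extra CV. The median extra CV of the members was 0.492 and 0.502 in shr2 libraries, against 0.489, 0.565 and 0.568 in wild-type libraries. The means of these medians were 0.497 ± 0.00703 (SD, n = 2) in shr2 and 0.541 ± 0.0451 (SD, n = 3) in wild type, and the genotypes overlapped. The other abundant genes had medians of 0.864 and 0.906 in shr2 libraries, against 0.885, 1.09 and 1.08 in wild-type libraries, so the members were the more even group in each of the 5 libraries. A low spread favours detection in every barcode, so this difference follows in part from how members were chosen. The extra CV ordered the members alike in every library, with Spearman's rho against wild-type replicate 1 of 0.958 and 0.939 in shr2 libraries and 0.905 and 0.909 in the other wild-type libraries. Its rho with the level of the same library was between 0.113 and 0.269, so abundant members were not the most even ones.

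**Figure D2:**
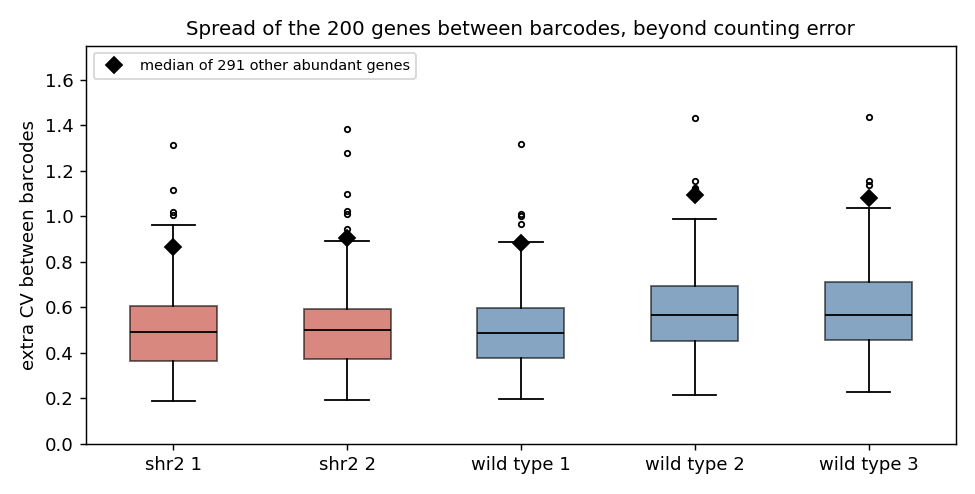
Extra CV between barcodes (y axis) of the 200 genes in each library (x axis; shr2 in red, wild type in blue); boxes span the quartiles with the median as a line, whiskers reach 1.5 times the box, and points lie beyond. Black diamonds give the median of 291 other abundant genes, 0.864 to 1.09, which lies above the members' median of 0.489 to 0.568 in every library.

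Among the members, 14 had a mean extra CV under 0.3 and 4 had one over 1. The most even was Sevir.4G069000, with an extra CV of 0.187 and 0.194 in shr2 libraries, against 0.210, 0.216 and 0.226 in wild-type libraries. Its level was 395 and 349 CPM in shr2 libraries, against 350, 333 and 337 CPM in wild-type libraries, so it was one of the less abundant members and held nearly the same level in all libraries. The next were Sevir.2G048900, Sevir.4G266700, Sevir.5G351400 and Sevir.9G033000, with means between 0.216 and 0.275. The most uneven was Sevir.3G236000, with an extra CV of 1.31 and 1.38 in shr2 libraries, against 1.32, 1.43 and 1.44 in wild-type libraries. Its level was 1018 and 1023 CPM in shr2 libraries, against 869, 766 and 813 CPM in wild-type libraries, and the genotypes did not overlap. Sevir.5G247800, Sevir.9G517300, Sevir.9G033200 and Sevir.5G340900 followed with means of 1.13, 1.08, 1.00 and 0.946. Genes of this kind were detected in over 90% of deep barcodes of every library and yet varied by about their own mean from barcode to barcode.

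To see how levels differed between groups of barcodes, deep barcodes were clustered on 2000 variable genes from which the members were left out. The clustering gave 13 clusters, of which 11 were represented by 50 or more barcodes in all 5 libraries, 99.3% of the barcodes together. These clusters are numbered by size and are not named. In each library a member's level in its highest cluster was divided by that in its lowest, and the geometric mean over libraries was taken. The highest and lowest cluster could thus differ between libraries, and those named below are by mean level over libraries. The ratio had a median of 2.30, between 1.35 and 9.64, against a median of 5.07 for the other abundant genes. Those other genes were not left out of the clustering, which favours a wide range for them, so the 2 medians are not a like comparison. The ratio was over 2 for 131 members and over 5 for 10. Of the 200, 136 were seen in at least 80% of the barcodes of every one of the 11 clusters in every library, and 199 in at least 50%.

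Sevir.9G517300 had the widest range, highest in cluster 9 and lowest in cluster 2. Its level in cluster 9 was 3221 and 3513 CPM in shr2 libraries, against 3245, 3504 and 3844 CPM in wild-type libraries. In cluster 2 it was 414 and 313 CPM in shr2 libraries, against 423, 326 and 360 CPM in wild-type libraries. Cluster 9 was its highest cluster in 5 of 5 libraries, and even in cluster 2 it was seen in 80.8% and 83.5% of shr2 barcodes, against 86.4%, 88.7% and 88.6% of wild-type barcodes. Sevir.3G236000 was also highest in cluster 9, and lowest in cluster 5 (ratio 8.96). Sevir.5G247800 and Sevir.9G033200 were highest in cluster 7 (8.90 and 7.11), and Sevir.9G023800 in cluster 2 (6.56). The narrowest were Sevir.9G203300, Sevir.4G266700, Sevir.5G351400, Sevir.2G087600 and Sevir.2G048900, with ratios between 1.35 and 1.40. Sevir.4G266700 was at 865 and 995 CPM in its highest cluster, cluster 4, in shr2 libraries, against 867, 976 and 756 CPM in wild-type libraries. In its lowest, cluster 7, it was at 685 and 711 CPM in shr2 libraries, against 655, 691 and 579 CPM in wild-type libraries. Sevir.4G266700, Sevir.5G351400 and Sevir.2G048900 were also among the 5 members with the lowest spread between barcodes.

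Cluster 7 stood apart. It was the lowest cluster for 86 of the 200 members, followed by cluster 11 for 43, and it was the highest for 25. It held 3.19% and 7.75% of the deep barcodes in shr2 libraries, against 5.56%, 11.8% and 12.3% in wild-type libraries, and the genotypes overlapped. Only 146 deep barcodes over all libraries carried fewer than 150 members, and 142 of them were in cluster 7. Such barcodes numbered 9 and 23 in shr2 libraries, against 26, 51 and 37 in wild-type libraries. The lowest share of any member in any cluster and library was also there, for Sevir.5G443500, named after its values were seen for this reason. It was seen in 80.7% and 66.6% of the cluster 7 barcodes of shr2 libraries (exact 95% intervals 75.1% to 85.5% and 61.3% to 71.5%), against 65.6%, 50.5% and 48.5% of those of wild-type libraries (60.6% to 70.4%, 46.0% to 55.1% and 43.8% to 53.2%). Its level in cluster 7 was 1034 and 749 CPM in shr2 libraries, against 707, 312 and 287 CPM in wild-type libraries, and in its highest cluster, cluster 2, it was 2466 and 2815 CPM in shr2 libraries, against 2807, 2648 and 2579 CPM in wild-type libraries. In cluster 7 the median member was seen in 94.5% and 93.8% of barcodes in shr2 libraries, against 92.6%, 90.9% and 91.8% in wild-type libraries. The median depth was 8655 UMIs per barcode in cluster 7, 11747 in cluster 8 and 8486 in cluster 1, and the part of depth in the shares of cluster 7 was not tested. Without cluster 7 the median ratio of highest to lowest cluster was 1.90.

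Members were in general not correlated across the barcodes of a library. Over 19900 pairs, the median Pearson's r of log2(counts per 10000 UMIs + 1) was 0.0225 and 0.0485 in shr2 libraries, against 0.0374, 0.0688 and 0.0610 in wild-type libraries. All such correlations are across barcodes that share a library and its range of depth, and are given as a description. Only 30 pairs had an r over 0.5 in every library, and 22 pairs had an r under -0.3 in every library. The strongest pair was Sevir.7G168800 and Sevir.1G210200, with r of 0.718 and 0.752 in shr2 libraries, against 0.736, 0.826 and 0.845 in wild-type libraries. The most opposed pair was Sevir.5G448800 and Sevir.9G023800, with r of -0.426 and -0.524 in shr2 libraries, against -0.462, -0.504 and -0.513 in wild-type libraries.

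Joining the genes of the 30 pairs gave 3 sets of 5 or 6 genes and 4 single pairs, 25 genes in all. They were formed after the values were seen, and so get no test. Set 1 holds Sevir.3G253900, Sevir.4G143500, Sevir.5G247800, Sevir.5G250900, Sevir.1G221100 and Sevir.1G016600. Set 2 holds Sevir.5G079800, Sevir.1G077400, Sevir.4G277600, Sevir.1G288000, Sevir.4G272800 and Sevir.1G077500. Set 3 holds Sevir.7G206100, Sevir.6G235000, Sevir.2G151300, Sevir.2G281200 and Sevir.9G023800. The mean r between genes of set 1 and genes of set 3 was -0.0423 and -0.156 in shr2 libraries, against -0.211, -0.286 and -0.308 in wild-type libraries. Here the values in shr2 libraries were nearer to 0. Between sets 2 and 3 the mean r was -0.229 and -0.159 in shr2 libraries, against -0.196, -0.108 and -0.123 in wild-type libraries, and the genotypes overlapped. No share over other groups of pairs was computed, and the part of depth was not tested, so these values are a description. Sevir.1G077400 and Sevir.1G077500 of set 2 carry consecutive identifiers, 1 of 2 such neighbouring pairs among the members. Neighbouring or near-identical gene copies can share reads, and how the counting treated them was not given in the sources used here, so the correlation of this pair is uncertain.

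**Figure D3:**
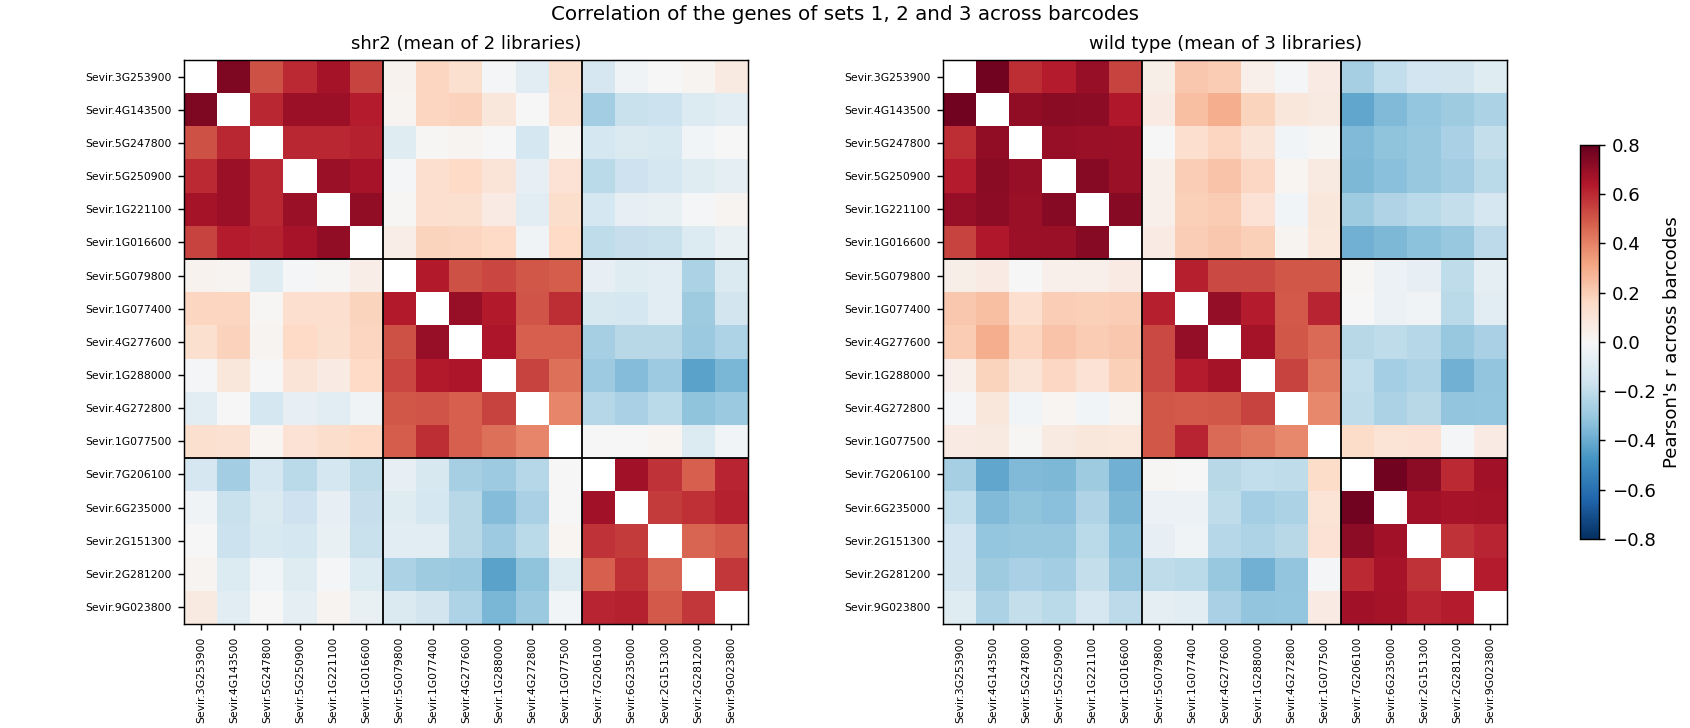
Pearson's r across deep barcodes between the 17 genes of sets 1, 2 and 3 (colour scale; genes on both axes, black lines between sets), averaged over 2 shr2 libraries on the left and 3 wild-type libraries on the right. Red blocks on the diagonal are the sets, and the blue block between sets 1 and 3 is paler in shr2, with mean r of -0.0423 and -0.156, against -0.211 to -0.308 in wild type. Between sets 2 and 3 the genotypes overlapped, and neither difference was tested.

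The sets differed in where they were high. Set 1 was high in clusters 7, 4 and 11 in every library. It took 1.69% and 2.55% of the UMIs of cluster 7 in shr2 libraries, against 2.91%, 3.99% and 4.45% in wild-type libraries. In cluster 11 it took 2.19% and 2.10% in shr2 libraries, against 2.21%, 2.56% and 2.37% in wild-type libraries, and in cluster 4 it took 1.77% and 1.98% in shr2 libraries, against 2.07%, 3.04% and 3.13% in wild-type libraries. In shr2 replicate 1 clusters 11 and 4 were thus above cluster 7. In cluster 3 the set was lowest in every library, with 0.577% and 0.484% in shr2 libraries, against 0.759%, 0.738% and 0.808% in wild-type libraries. Set 3 was low in cluster 7, with 1.94% and 1.36% of the UMIs of cluster 7 in shr2 libraries, against 1.17%, 0.840% and 0.827% in wild-type libraries, and 4.78% and 4.74% in cluster 2 in shr2 libraries, against 4.66%, 4.77% and 4.92% in wild-type libraries. Set 2 was high in clusters 8 and 9, with 1.87% and 1.96% of cluster 8 in shr2 libraries, against 2.23%, 2.16% and 2.20% in wild-type libraries. In cluster 10 it took 1.24% and 1.54% in shr2 libraries, against 1.60%, 2.18% and 2.13% in wild-type libraries.

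Against this background the members were compared between shr2 and wild type. In edgeR's quasi-likelihood test on the summed counts of deep barcodes, with Benjamini-Hochberg adjustment over all genes, 0 of 18730 genes (0%) had an adjusted p under 0.05, and so 0 of the 200 members. An unadjusted p under 0.05 was found for 1861 genes and 2 members, and DESeq2 called 249 genes and 0 members. The log2 ratio of mean CPM, shr2 over wild type, had a median of -0.06 over the members, against 0.11 over all 7223 genes with at least 10 CPM. It lay within 0.2 of 0 for 125 members, under -0.5 for 11 and over 0.5 for 0. Without wild-type replicate 1 these counts were 92, 30 and 7, and the median was -0.10 over the members, against 0.18 over all such genes. Directions near 0 depend on the scaling: the fitted fold change was positive for 46 members with TMM scaling and for 85 with plain totals.

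The shr2 libraries lay without overlap above the wild-type libraries for 25 members and below them for 22. Together these are 23.5% of members, where 26.2% of all genes with at least 10 CPM did not overlap (15.9% higher and 10.3% lower in shr2). The rule used this contrast, so nothing is read from these shares. Leaving out a library can only raise these counts, since fewer libraries have to be apart. Without wild-type replicate 1, 148 members did not overlap (58 higher and 90 lower in shr2), 74.0% of members beside 75.8% of all genes with at least 10 CPM. Without shr2 replicate 2 it was 136 members, 68.0% beside 68.7%, and without shr2 replicate 1 it was 79, 39.5% beside 41.8%. Without wild-type replicate 2 it was 48 members, 24.0% beside 28.1%, and without wild-type replicate 3 it was 49, 24.5% beside 28.0%.

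Of the 5 members with the lowest ratios, 4 belonged to sets 1 and 2. Sevir.9G522500 had 847 and 1380 CPM in shr2 libraries, against 1177, 2918 and 2966 CPM in wild-type libraries, a log2 ratio of -1.08. Wild-type replicate 1 lay between the shr2 libraries, and the genotypes overlapped. Sevir.5G247800 of set 1 had 2304 and 2849 CPM in shr2 libraries, against 3197, 5796 and 6129 CPM in wild-type libraries. Its log2 ratio was -0.97, and the fitted log2 fold change was -1.09 (SE 0.45, adjusted p = 0.515 in edgeR's test). The genotypes did not overlap, but wild-type replicate 1 was nearer to the shr2 libraries than to the other wild-type ones. Sevir.5G250900, also of set 1, had 848 and 1018 CPM in shr2 libraries, against 1343, 1623 and 1605 CPM in wild-type libraries, with a log2 ratio of -0.71 (edgeR's test, adjusted p = 0.469). Since the choice of members used this contrast, the p-values of these genes are a description only. The next were Sevir.1G077500 of set 2 (log2 ratio -0.65) and Sevir.4G143500 of set 1 (-0.63), both without overlap. Leaving out 1 library at a time gave log2 ratios between -1.21 and -0.80 for Sevir.5G247800 and between -0.85 and -0.58 for Sevir.5G250900. The ratio of Sevir.1G077500 moved most, to -0.32 without shr2 replicate 1 and to -1.10 without shr2 replicate 2.

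At the other end, Sevir.1G260800 had 1129 and 919 CPM in shr2 libraries, against 894, 659 and 695 CPM in wild-type libraries, a log2 ratio of 0.45 without overlap. Sevir.9G362400 had 573 and 448 CPM in shr2 libraries, against 421, 353 and 365 CPM in wild-type libraries, a log2 ratio of 0.43 without overlap. Sevir.1G240900 (0.38, without overlap), Sevir.2G049500 (0.38) and Sevir.3G208100 (0.36) followed, the last 2 with overlap. Without shr2 replicate 1 the log2 ratio was 0.29 for Sevir.1G260800, 0.24 for Sevir.9G362400, 0.18 for Sevir.2G049500 and 0.17 for Sevir.3G208100, and without shr2 replicate 2 it was between 0.53 and 0.59 for these 4 genes. Adjusted p-values of the 5 genes in edgeR's test lay between 0.551 and 0.660, and are likewise a description only.

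**Figure D4:**
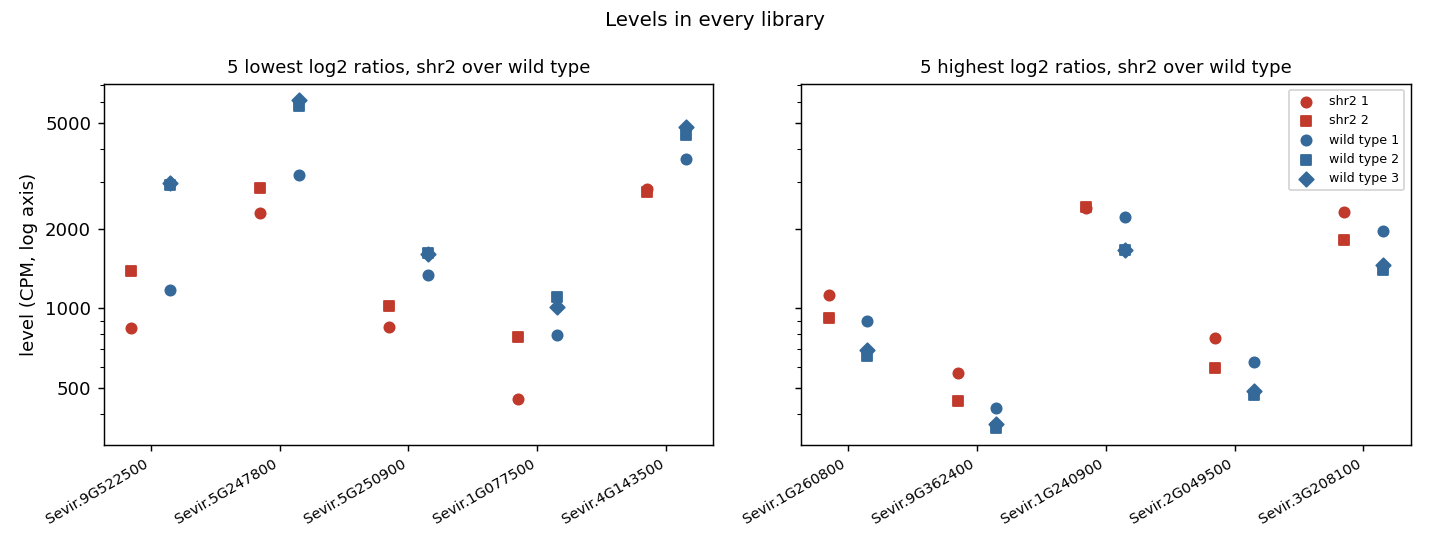
Level (CPM, log y axis) in each library of the 5 genes with the lowest (left) and the 5 with the highest (right) log2 ratio of shr2 (red) over wild type (blue); each point is 1 library, with its replicate number shown by the marker. Wild-type replicate 1 (blue circle) lies nearest to the shr2 libraries for every one of the 10 genes, as for Sevir.9G522500 at 1177 CPM between 847 and 1380 CPM.

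Set 1 was lower in shr2 as a whole. Its 6 genes together took 0.991% and 1.15% of deep UMIs in shr2 libraries, against 1.38%, 1.81% and 1.90% in wild-type libraries. Each of the 6 was lower in shr2 without overlap, with log2 ratios between -0.97 and -0.42. Within clusters, the summed level of set 1 was lower in shr2 without overlap in 11 of 11 clusters. In cluster 11 the groups came closest, at the values given above. Beside these counts, 10.3% of all genes with at least 10 CPM were lower in shr2 without overlap over all deep barcodes, and 0.554% of single genes were so in all 11 clusters. The set was formed after the values were seen and its genes move together, and no share over sums of comparable sets was computed, so the counts are a description. Set 2 took 0.992% and 1.22% of deep UMIs in shr2 libraries, against 1.29%, 1.41% and 1.42% in wild-type libraries. It was lower in shr2 without overlap in 7 of 11 clusters, and 3 of its 6 genes were lower over all deep barcodes. Set 3 took 3.64% and 3.38% in shr2 libraries, against 3.46%, 3.26% and 3.37% in wild-type libraries, and the genotypes overlapped.

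**Figure D5:**
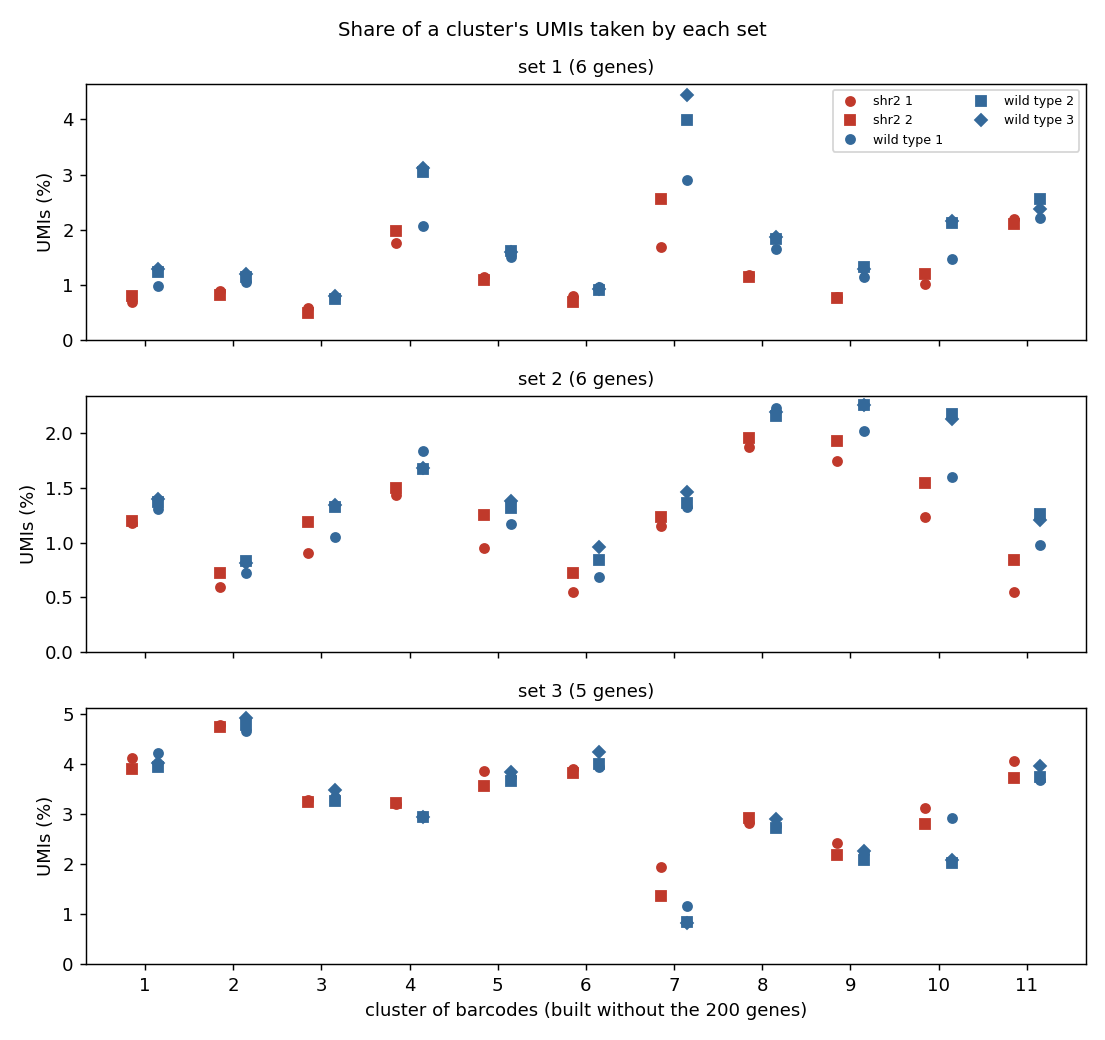
Share of the UMIs of a cluster (percent, y axis) taken by the genes of set 1, 2 and 3 (panels) in each of 11 clusters (x axis), with 1 point per library (shr2 in red, wild type in blue, replicate by marker). Set 1 lies lower in both shr2 libraries in all 11 clusters, and set 3 is lowest in cluster 7, at 1.94% and 1.36% in shr2 and 0.827% to 1.17% in wild type.

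Single members were also followed through the clusters. Lower levels in shr2 without overlap in at least 6 of 11 clusters were found for 15 members (of all genes with at least 10 CPM, 6.02%), and higher levels in as many clusters for 14 members (8.85%). One member, Sevir.5G250900, was lower in all 11 clusters, which 0.554% of all such genes were. The others with 9 or more clusters, named after their values were seen, were Sevir.3G253900, Sevir.4G143500, Sevir.1G221100 and Sevir.1G016600 of set 1 and Sevir.6G210700 among those lower in shr2. Higher in shr2 in 9 or 10 clusters were Sevir.2G087600, Sevir.2G382200, Sevir.9G362400, Sevir.9G362700 and Sevir.1G240900. No share over all genes was computed at 9 or more clusters. All clusters come from the same 5 libraries, so the genes named at this cut are a description. Sevir.9G362700 had 436 and 436 CPM in shr2 libraries, against 363, 361 and 353 CPM in wild-type libraries, so both genotypes were nearly constant between their libraries. Sevir.2G382200 had 2633 and 2738 CPM in shr2 libraries, against 2305, 2343 and 2323 CPM in wild-type libraries, with the same pattern.

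Shallow barcodes, with at least 1000 but under 5000 UMIs, were outside the choice of members and numbered 2715 and 657 in shr2 libraries, against 1358, 912 and 790 in wild-type libraries. The members took 36.7% and 38.2% of shallow UMIs in shr2 libraries, against 35.5%, 37.1% and 37.1% in wild-type libraries, while deep barcodes had spread over 35.1% to 42.8%. The differences between libraries seen in deep barcodes were thus smaller in shallow ones. Thinned to 1000 UMIs, shallow barcodes held a median of 113 and 98 members in shr2 libraries and 107, 96 and 95 in wild-type libraries, and deep barcodes held 116 and 120 in shr2 libraries and 117, 121 and 121 in wild-type libraries. In each of the 5 libraries the median of shallow barcodes was therefore under that of deep ones at equal depth, by least in shr2 replicate 1. The choice of members used detection in the deep wild-type barcodes, which favours the deep side, so the difference is not independent of it.

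Gene by gene, shallow and deep sums were compared with library as a block. In edgeR's quasi-likelihood test 7690 of 18951 genes had an adjusted p under 0.05 (40.6%, 19.4% higher and 21.1% lower in shallow barcodes). Of the members, 120 were called, 9 higher and 111 lower in shallow barcodes. The choice of members used the wild-type deep barcodes, which favours genes that are high there, so the count is not independent of it. In the shr2 libraries alone, which leave 1 residual degree of freedom, 0 members were called of 1783 genes, and the median log2 fold change of the members was -0.24, against -0.04 over all genes. With plain totals in place of TMM scaling the median of all genes moved to 0.25, against -0.03 with TMM. Of 18951 genes 7770 were then called, 5506 higher and 2264 lower in shallow barcodes. Of the 200 members 96 were called, 28 higher and 68 lower.

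The clearest member in the other direction was Sevir.7G168800. It had 13069 and 28737 CPM in the shallow barcodes of shr2 libraries and 20019, 26721 and 26082 CPM in those of wild-type libraries. In deep barcodes it had 7233 and 7353 CPM in shr2 libraries and 6853, 8552 and 8034 CPM in wild-type libraries. It was higher in shallow barcodes in 5 of 5 libraries, with a log2 fold change of 1.24 (SE 0.19, adjusted p = 0.000451 in edgeR's test). Its partner across barcodes, Sevir.1G210200, had 3924 and 15216 CPM in shallow barcodes of shr2 libraries and 6989, 15114 and 11740 CPM in those of wild-type libraries. In deep barcodes this gene had 2806 and 5386 CPM in shr2 libraries and 3129, 6203 and 4756 CPM in wild-type libraries, and its log2 fold change was 0.84 (SE 0.17, adjusted p = 0.00275 in edgeR's test). Sevir.5G340900, Sevir.1G016600 and Sevir.5G250900 were also higher in shallow barcodes of all 5 libraries, with log2 fold changes of 0.69, 0.53 and 0.51 (adjusted p between 0.00392 and 0.0135 in edgeR's test).

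The members lower in shallow barcodes are given without p-values, because the choice of members favours genes that are high in the deep barcodes of wild type. Sevir.1G240900 had 1985 and 1084 CPM in shallow barcodes of shr2 libraries and 1374, 717 and 744 CPM in wild-type libraries. In deep barcodes it had 2395 and 2410 CPM in shr2 libraries and 2219, 1666 and 1668 CPM in wild-type libraries. Its log2 fold change was -1.21 over all libraries and -0.90 in the shr2 libraries alone. Sevir.9G171900, Sevir.9G419900, Sevir.5G443500 and Sevir.4G009200 had log2 fold changes of -0.93, -1.14, -1.20 and -1.10 over all libraries, and of -0.66, -0.86, -0.79 and -0.77 in the shr2 libraries alone, and each was lower in shallow barcodes of 5 of 5 libraries. Shr2 replicate 1 showed the smallest difference for Sevir.1G240900, and its shallow barcodes were also the deepest, with a median of 3187 UMIs, against 2596 in shr2 replicate 2 and 2343 to 2835 in wild-type libraries.

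The digit before the letter G in the identifiers runs between 1 and 9, and members were found with each of these digits. Those with the digits 6 and 7 held 3.00% and 4.00% of members, against 6.71% and 8.67% of all genes with at least 10 CPM. Those with the digits 3 and 5 held 15.5% and 17.0% of members, against 12.7% and 14.9%. These shares are a description of the list.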

How the data were processed

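Protoplasts from 5 leaf samples were sequenced singly. The count matrices come from Cell Ranger 5.0.1, per the file headers. The submitters' processing notes also name Seurat 4.3.0. The deposited values are whole UMI counts per gene and barcode, not normalized. The genome build, alignment settings and strand setting are not given in the sources used here. Barcodes had at least 500 UMIs, so no lower filter was added. Total UMIs per library ran between 45450710 and 86869180.

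The members and all lists were chosen with earlier results of these data known. The named genes are the 5 at each end of share, level, extra CV, log2 ratio, cluster range and depth test, and the 5 closest pairs. Counts were summed over deep barcodes per library and tested by quasi-likelihood in edgeR 4.0.16 under R 4.3.3 (genes filtered with filterByExpr, TMM scaling, glmQLFit, glmQLFTest, Benjamini-Hochberg adjustment over all genes tested, threshold 0.05), with DESeq2 1.42.0 as an alternative. CPM values in the text use plain totals of the barcodes summed. The extra CV is a moment estimate of the variance between barcodes beyond Poisson counting. Clusters came from scanpy 1.11.5 (2000 variable genes without the members, centred per library, 30 principal components, 3 nearest neighbours from each library, Leiden resolution 1). No doublets were removed in the main values. Scrublet's own threshold marked at most 0.127% of the barcodes of a library, so it had not worked, and an alternative removed the highest scores instead, 0.8% per 1000 barcodes.

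On simulated counts, the genotype test over 18730 genes recovered 60% of 4-fold and 3% of 2-fold changes, and the depth test over 18951 genes 89% and 63%. Planned lists of marker genes and gene groups could not be used without gene names.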

Additional observations from a re-analysis of the deposited data

How the results depend on the processing

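With 2 shr2 and 3 wild-type libraries the genotype test had little power for 2-fold changes in the simulation, where all genes had the same dispersion. Its count of 0 thus says little about small differences. It was 249 genes with DESeq2 and 7 without a filter on low counts, and 0 with at least 10 CPM, without TMM, with all deposited barcodes, without the highest Scrublet scores and without each library in turn. The members called were 0 under each of these settings. A replicate block by number called 1003 genes and 0 members, with 1 residual degree of freedom. Same-numbered libraries deviated together (r of 0.779 and 0.760 over genes). There are only 2 such pairs, and the labels name no shared day or batch. The 2 values of r are not independent, since 2 shr2 libraries deviate oppositely from their mean by construction and wild-type replicates 2 and 3 were nearly alike. Over the members, shr2 replicate 2 was about as close to wild-type replicate 3 (SD of the log2 CPM difference 0.25) as to wild-type replicate 2 (0.24). Members without overlap between genotypes were 47 with all libraries (23.5%, beside 26.2% of all genes with at least 10 CPM). Without 1 library they were between 48 and 148 (24.0% to 74.0%, beside 28.0% to 75.8%), an alternative chosen after seeing the data.

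In the depth test, 7690 genes and 120 members were called. The shr2 libraries alone gave 1783 genes and 0 members. Leaving out each library gave between 5714 and 8458 genes, of 18477 to 18752 tested, and between 65 and 159 of the 200 members. The members called were 68, 65 and 69 when shr2 replicate 2, wild-type replicate 2 or wild-type replicate 3 was left out. Of the 10 members named from this test, all lost the call with the shr2 libraries alone, where 1 residual degree of freedom was left and the log2 fold changes kept their direction (between 0.50 and 1.22, and between -0.90 and -0.66), and Sevir.5G250900 also when shr2 replicate 2 or wild-type replicate 1 was left out; the other 88 of 100 recomputed values kept their call and direction.

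The mean extra CV of the members of shr2 libraries was 0.568 when barcodes were thinned to 5000 UMIs, against 0.497 without thinning, and 0.540 with 5000 to 20000 UMIs only and 0.513 without the highest Scrublet scores. In wild-type libraries thinning gave 0.591 in place of 0.541. The median ratio of highest to lowest cluster was 2.30, and 1.65 with Leiden resolution 0.5 and 1.92 with 15 nearest neighbours over all libraries, where only 5 clusters were in every library. The list itself shared 189 of 200 members with a minimum of 10000 UMIs and more with 3000, and 172 of the 186 that qualified at 5000 thinned UMIs. It shared 200 without the highest Scrublet scores, without the 2-fold drop and with CPM over all barcodes, and between 179 and 199 without 1 wild-type library.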
